A study of Mus musculus with 6 samples.

Results

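A set of 10 genes of epithelial-mesenchymal transition (EMT) and cadherin adhesion was followed in cultured mouse melanoma cells treated with fenofibrate at 50 µM or left as controls. They were taken by symbol from a table of 54838 genes: the transcription factor genes Snai1, Snai2, Zeb1, Zeb2 and Twist1, the cadherin genes Cdh1 and Cdh2, the vimentin gene Vim, and the junction plaque genes Jup and Pkp2. All 10 were found, and 7 had enough counts to be tested. Fenofibrate is a drug against high blood lipids that acts through the nuclear receptor PPARα. Total RNA enriched for mRNA was sequenced from 3 control and 3 fenofibrate libraries, which the labels call biological triplicates of the melanoma line B16F10. The cell line field, however, runs from B16F10 to B16F15 across the 6 libraries. Groups were taken from the titles, and if that field is meant as written, line and treatment cannot be told apart. Length of treatment and any vehicle in the control cultures are not given in the sources used here.

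EMT is the programme by which cells give up cadherin-based epithelial junctions and take on a mesenchymal shape. Factors of the SNAIL, ZEB and TWIST families bind E-box DNA elements and repress epithelial genes, among them Cdh1, which encodes E-cadherin. Cells in this state typically carry N-cadherin (Cdh2) and vimentin instead. Melanocytes come from the neural crest, and in melanoma the factors are used differently: ZEB2 and SNAI2 belong to the differentiated, pigmented state and ZEB1 and TWIST1 to the dedifferentiated one.

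The libraries held 13540038 to 14710856 counts, so that 3 counts, the limit that a count of 0 allows, correspond to 0.204 to 0.222 CPM (counts scaled to the library total) in 1 library. This limit and the counting intervals below cover counting error only. Of 12 genes tested on a list of 13 melanocyte lineage genes, 8 rose and 1 fell. Of all tested genes 39.1% were called, 19.5% higher and 19.5% lower. The summed level of the melanocyte list was 22626 to 24071 CPM in control and 27622 to 29245 CPM with fenofibrate. The pigment genes Tyrp1, Pmel and Dct were among the abundant ones, with 338455, 218089 and 229693 counts over the controls, while Ednrb was at 0 in all 6 libraries.

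Markers of other cell types were read as summed levels. The 8 keratinocyte and epithelial markers summed to 0.568 to 1.54 CPM in control and 0.696 to 0.748 CPM with fenofibrate, with Krt5, Krt1, Krt10 and Krt19 at 0. The 9 fibroblast markers summed to 41.7 to 46.5 CPM in control and 21.5 to 23.7 CPM with fenofibrate, none of them at 0 in all libraries. The 6 endothelial markers went from 3.24 to 3.46 CPM in control to 8.49 to 11.1 CPM, with Cdh5, Kdr, Tek and Cldn5 at 0. The 8 leukocyte markers went from 0.221 to 0.662 CPM in control to 1.11 to 1.39 CPM, with Cd3e, Adgre1 and Itgam at 0. The 6 Schwann cell and neural crest markers went from 54.5 to 60.0 CPM in control to 102 to 116 CPM, with S100b at 1471 counts in control and 3767 with fenofibrate and Sox2 at 0. Of 3 tested, 1 rose and 0 fell (33.3% called, where 39.1% of all tested genes were), with a median log2 fold change of -0.11. The rise of this sum thus followed S100b and does not describe the 6 markers as a set. The 6 muscle markers gave 5.88 to 6.47 CPM and 6.46 to 7.39 CPM, with Actc1, Myog and Myod1 at 0. The part of these markers in the results below was not tested. In bulk RNA, fewer cells with a transcript and less of it per cell cannot be told apart.

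Only part of the EMT programme was expressed, and that part shifted in both directions. With fenofibrate, Zeb2 fell 1.49-fold and Cdh2 1.43-fold, Pkp2 rose 3.05-fold, and Snai2 (1.34-fold) and Jup (1.22-fold) rose by less. Vim and Cdh1 did not pass the test, and Snai1, Zeb1 and Twist1 were at or close to 0 counts in both groups. A gene was called at an adjusted p under 0.05 in edgeR's quasi-likelihood test, with Benjamini-Hochberg adjustment over the 13629 genes tested. By this rule 5 of the 7 tested genes were called, 3 higher and 2 lower, where 39.1% of all tested genes were called, 19.5% higher and 19.5% lower. Without TMM scaling the split over all genes was 2180 higher and 3280 lower in place of 2664 and 2662. Normalised levels of the same 5 genes did not overlap between the groups, as was the case for 53.3% of all tested genes.

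**Figure D1:**
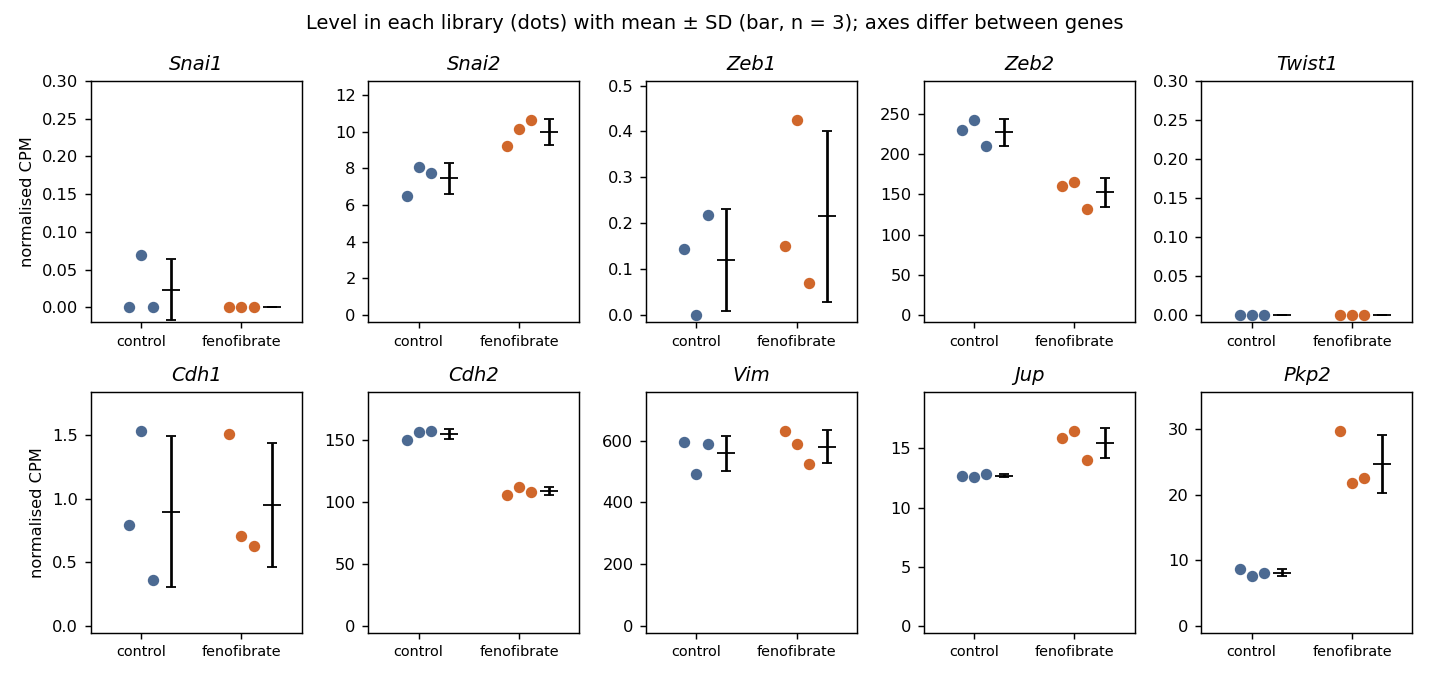
Normalised CPM of each of the 10 genes (vertical axes, which differ between genes) in the 3 control and 3 fenofibrate libraries (dots), with mean ± SD (bars, n = 3). Zeb2 and Cdh2 are lower and Pkp2 is higher in every fenofibrate library than in any control library, and Twist1 has 0 counts throughout.

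Among the EMT transcription factors, Zeb2 was the abundant one. Zeb2, a zinc finger and homeobox repressor, gave 3185, 3472 and 2886 counts in control and 2125, 2335 and 1897 counts after fenofibrate. All 3 treated libraries lay below all 3 controls. Mean normalised CPM (± SD, n = 3 each) went from 226.97 ± 16.5 to 153 ± 18.2, a log2 fold change of -0.57 ± 0.09 SE with a 95% interval from -0.79 to -0.36 (edgeR adjusted p = 0.00244). The gene, ENSMUSG00000026872, lies on chromosome 2 from 44983632 to 45117395 (GRCm38). Its exons share 653 bases with the antisense gene Zeb2os, and no strand is stated for the libraries. Zeb2os itself summed to 67 counts in control and 85 after fenofibrate.

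Snai2, which encodes the zinc finger repressor SLUG, moved the other way. It was counted 90, 116 and 107 times in control and 122, 143 and 153 times with fenofibrate, so the groups were next to each other without overlap. Mean normalised CPM (± SD, n = 3 each) was 7.44 ± 0.848 against 9.99 ± 0.717, a log2 fold change of 0.42 ± 0.13 SE with a 95% interval from 0.13 to 0.72 (edgeR adjusted p = 0.0338). The call was lost in 8 of 14 alternative analyses, with DESeq2 at an adjusted p of 0.152, and without control replicate 1 or 3 (0.0991 and 0.0632) or fenofibrate replicate 2 or 3 (0.0803 and 0.0926). The log2 fold change stayed between 0.33 and 0.49 in all 14. Snai2, ENSMUSG00000022676, lies on chromosome 16 from 14705852 to 14709385.

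The other factors were hardly present. Zeb1, the paralog of Zeb2 and overlapped by the transcript Gm10125 on the other strand, was counted 2, 0 and 3 times in control and 2, 6 and 1 times with fenofibrate. Snai1 (SNAIL) had 1 count in the second control library and 0 in the other 5. Twist1, a basic helix-loop-helix factor, had 0 counts in all 6 libraries, which allows a level of up to 0.0727 CPM over the control group and 0.0704 CPM over the fenofibrate group. None of these genes passed the filter on low counts, and no change could be tested. Snai1 (ENSMUSG00000042821, 167538195 to 167542814) lies on chromosome 2, Zeb1 (ENSMUSG00000024238, 5591860 to 5775467) on chromosome 18 and Twist1 (ENSMUSG00000035799, 33957671 to 33959829) on chromosome 12.

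To compare genes with each other, CPM was divided by the kilobases of merged exons in the GENCODE M21 annotation. The deposited FPKM use longer lengths for some of these genes, 1.71 times the merged length for Zeb2 and 1.65 times for Vim but not for Snai2, and so understate Zeb2 against Snai2. Per length, Zeb2 stood at 11.6 ± 0.876 in control and 7.5 ± 0.902 with fenofibrate, and Snai2 at 3.75 ± 0.420 and 4.84 ± 0.351 (CPM per kilobase, mean ± SD, n = 3 each). The per-length level of Zeb2 was 983 times that of Zeb1 in control (95% interval 421 to 3027) and 364 times with fenofibrate (191 to 796), both from summed counts with exact binomial intervals.

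Of the summed per-length level of the 5 factors, Zeb2 made up 73.1% to 78.1% in the control libraries and 55.7% to 63.8% with fenofibrate. Snai2 made up 21.8% to 26.7% and 36.1% to 44.3%, an increase of 14.9 percentage points between the means. The groups did not overlap, and the two-sided exact permutation test gave p = 0.1, the smallest value that 3 against 3 libraries allow. On deposited FPKM the increase was 17.0 points. This share was computed after the values of both genes had been seen.

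**Figure D2:**
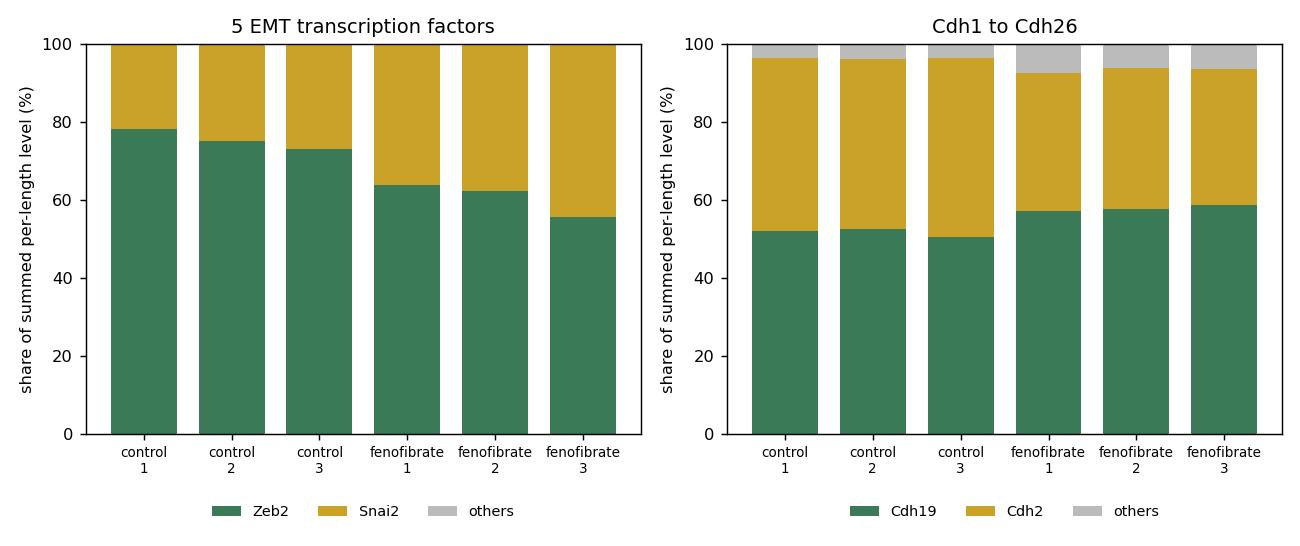
Share of the summed per-length level (percent, vertical axis) in each of the 6 libraries, for the 5 EMT transcription factors (left) and for the cadherins Cdh1 to Cdh26 (right). Zeb2 takes a smaller share of the factors in the fenofibrate libraries and Cdh2 a smaller share of the cadherins.

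In the promoter table from RefSeq (GRCm38.p6), 5 of the 10 genes were searched, Snai1, Zeb2, Twist1, Vim and Jup. The other 5 were either absent from it or left out of the search, and nothing is said here about their promoters. The 250 bases upstream of the start are printed for Zeb2 and Jup, which were called, and for Snai1, the only searched gene with an E-box there. The windows are given from 5′ to 3′ on the strand of the gene. They lie at chr2:45117443-45117692 (Zeb2, minus strand), chr11:100397791-100398040 (Jup, minus strand) and chr2:167537945-167538194 (Snai1, plus strand). Capitals mark matches to the E-box CANNTG, searched on both strands.
Zeb2: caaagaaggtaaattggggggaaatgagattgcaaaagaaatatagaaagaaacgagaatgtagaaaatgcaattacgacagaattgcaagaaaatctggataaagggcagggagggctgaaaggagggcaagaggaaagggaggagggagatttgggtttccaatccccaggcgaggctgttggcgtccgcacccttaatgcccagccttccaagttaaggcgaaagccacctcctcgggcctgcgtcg
Jup: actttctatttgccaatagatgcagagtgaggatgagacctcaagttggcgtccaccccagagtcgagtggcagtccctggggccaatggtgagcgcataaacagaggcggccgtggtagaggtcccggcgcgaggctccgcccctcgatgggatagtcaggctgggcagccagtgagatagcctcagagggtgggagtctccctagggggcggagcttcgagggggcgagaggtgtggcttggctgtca
Snai1: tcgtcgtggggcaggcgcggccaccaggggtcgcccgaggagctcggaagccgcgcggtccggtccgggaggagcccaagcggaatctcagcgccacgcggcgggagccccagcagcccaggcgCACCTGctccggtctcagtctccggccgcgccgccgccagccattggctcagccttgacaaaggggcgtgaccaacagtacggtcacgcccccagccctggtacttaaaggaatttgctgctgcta
The match in the Snai1 window, CACCTG, begins 126 bases before the start and is the other strand of CAGGTG, the form bound by SNAIL and ZEB factors. The general form CANNTG, which includes it, was found in 66.2% of the 32851 windows of this length searched in the table and CAGGTG in 17.2%. The windows of Jup, Twist1 and Vim and the 4 windows of Zeb2 held no match to CANNTG. A match describes the letters in this window and nothing about binding.

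Cadherins join neighbouring cells through the adherens junction, where catenins link them to actin. N-cadherin RNA was plentiful and fell, while E-cadherin RNA was near the limit of detection in both groups. Cdh2 was counted 2089, 2249 and 2176 times in control and 1401, 1585 and 1558 times with fenofibrate. Within each group the values were close, and the groups were far apart. Mean normalised CPM (± SD, n = 3 each) fell from 155 ± 3.97 to 109 ± 3.28, a log2 fold change of -0.51 ± 0.04 SE with a 95% interval from -0.61 to -0.41 (edgeR adjusted p = 0.000161). Cdh2, ENSMUSG00000024304, lies on chromosome 18 from 16588877 to 16809246.

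Cdh1 was counted 11, 22 and 5 times in control and 20, 10 and 9 times with fenofibrate, with the groups overlapping fully. The fitted change on the log2 scale was 0.06 ± 0.55 (SE; 95% interval -1.23 to 1.35; edgeR adjusted p = 0.948), so that anything from 0.425 to 2.54 times the control level lies inside the interval. Per length, Cdh2 exceeded Cdh1 97.2 times in control (95% interval 70.7 to 137) and 66.1 times with fenofibrate (48.3 to 93.0), from summed counts with exact binomial intervals. Within libraries, the log2 ratio of Cdh1 to Cdh2 was -7.51, -6.64 and -8.63 in control and -6.10, -7.24 and -7.36 with fenofibrate. These ranges overlapped, the means differed by 0.70, and the two-sided exact permutation test gave p = 0.4, where 0.1 is the smallest possible value. The planned ratios of Zeb1 to Zeb2 and Snai1 to Snai2 were not computed, since Zeb1 and Snai1 did not pass the filter. Cdh1, ENSMUSG00000000303, lies on chromosome 8 from 106603351 to 106670246.

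Among the genes Cdh1 to Cdh26, the abundant one beside Cdh2 was Cdh19, a cadherin of neural crest cells and their glial descendants. It summed to 3989 counts in control and 3921 after fenofibrate (log2 fold change -0.02 ± 0.06 SE, edgeR adjusted p = 0.838). Of the summed per-length level of Cdh1 to Cdh26, Cdh2 took 43.5% to 46.2% in control and 35% to 36.3% with fenofibrate, and Cdh19 50.3% to 52.6% and 57.1% to 58.7%. For the share of Cdh2 the two-sided exact permutation p was again 0.1, in a comparison made after the values were seen.

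Of 21 further Cdh genes, 11 had 0 counts in all libraries and 5 were tested, of which 3 rose and 0 fell (0 fell also at an unadjusted p under 0.05, and in DESeq2 and limma). Of those tested 60.0% were called, against 39.1% of all tested genes. The median log2 fold change was 0.81, where all tested genes had a median of 0.00. Cdh6 passed the low-count filter through the fenofibrate libraries only (2, 6 and 6 counts in control, 40, 40 and 60 with fenofibrate). Cdh11, with 26 counts in control and 14 with fenofibrate, was not tested. The filter thus bears on the count and the median, and neither describes the 21 genes as a set. Cdh6, a cadherin of kidney and neural crest, went from a summed 14 counts to 140 (9.80-fold, edgeR adjusted p = 0.000424). The membrane-anchored Cdh13 rose 2.13-fold and Cdh24 1.76-fold, both from low levels, and Cdh24 was not called without control replicate 1 (adjusted p = 0.0514) or by DESeq2 (0.115). For Cdh10 the log2 change was 0.25 ± 0.16 (SE, adjusted p = 0.249). Among 8 protocadherin, FAT and CELSR genes tested, 3 rose and 2 fell (62.5% called), with a median of 0.01. Celsr2, a planar polarity cadherin, fell 1.42-fold, and Pcdh17 rose 1.70-fold. The weakly counted Celsr3 (2.94-fold) and Pcdh9 (2.19-fold) rose and Pcdh19 (1.48-fold) fell. Celsr3 passed the low-count filter through the fenofibrate libraries only (9, 10 and 10 counts in control, 37, 30 and 18 with fenofibrate). The filter thus bears on the count and the median of these genes as well. Celsr3 was not called by limma on FPKM without a filter (log2 change 0.22, adjusted p = 0.0833). The call of Pcdh9 was lost without control replicate 2 or fenofibrate replicate 1 or 3 (adjusted p = 0.0572, 0.0560 and 0.0523). That of Pcdh19 was lost without control replicate 1 or 2 (0.114 and 0.120) or fenofibrate replicate 1, 2 or 3 (0.118, 0.0650 and 0.0863). Fat1, an atypical cadherin, stood at 370 ± 37.9 and 345 ± 12.1 normalised CPM (mean ± SD, n = 3 each, edgeR adjusted p = 0.310) and was called lower without control replicate 3 (adjusted p = 0.0297).

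The plaque proteins sit under the membrane, where they tie cadherins to the cytoskeleton. Pkp2, plakophilin of the desmosome, was counted 120, 109 and 110 times in control and 394, 308 and 324 times with fenofibrate. Every treated library was far above every control. Mean normalised CPM (± SD, n = 3 each) rose from 8.07 ± 0.529 to 24.7 ± 4.40, a log2 fold change of 1.61 ± 0.14 SE with a 95% interval from 1.28 to 1.94 (edgeR adjusted p = 0.000169). Of all tested genes, 2.00% had a change of this size or more. Pkp2, ENSMUSG00000041957, lies on chromosome 16 from 16213318 to 16272712.

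Jup encodes plakoglobin, a relative of β-catenin that serves both desmosomes and adherens junctions. It was counted 176, 180 and 177 times in control and 210, 233 and 202 times with fenofibrate, with a small gap between the groups. In normalised CPM (mean ± SD, n = 3 each) this was 12.7 ± 0.143 against 15.5 ± 1.28, a log2 fold change of 0.28 ± 0.09 SE with a 95% interval from 0.07 to 0.50 (edgeR adjusted p = 0.0459). The call was lost in 13 of 14 alternatives and held without fenofibrate replicate 3 (adjusted p = 0.0269). Without control replicate 1, 2 or 3 the adjusted p was 0.107, 0.113 and 0.0916, and without fenofibrate replicate 1 or 2 it was 0.111 and 0.136, while the log2 fold change stayed between 0.17 and 0.35. Jup, ENSMUSG00000001552, lies on chromosome 11 from 100368958 to 100397763. In control the per-length level of Jup, 2.01 ± 0.0180, was above that of Pkp2, 1.53 ± 0.103, and with fenofibrate Pkp2, at 4.51 ± 0.796, was above Jup at 2.35 ± 0.199 (CPM per kilobase, mean ± SD, n = 3 each).

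The remaining desmosome genes were near absent. Of 15 listed, 0 passed the filter and 8 had 0 counts in all 6 libraries, among them the desmosomal cadherin genes Dsg1a, Dsg3, Dsc1, Dsc2 and Dsc3. Dsg2 had 1 count in all. Dsp, which encodes desmoplakin, the link to intermediate filaments, had 5 counts in control and 2 after fenofibrate. The 15 genes summed to 0.515 to 1.03 CPM in control and 0.680 to 1.33 CPM with fenofibrate.

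**Figure D3:**
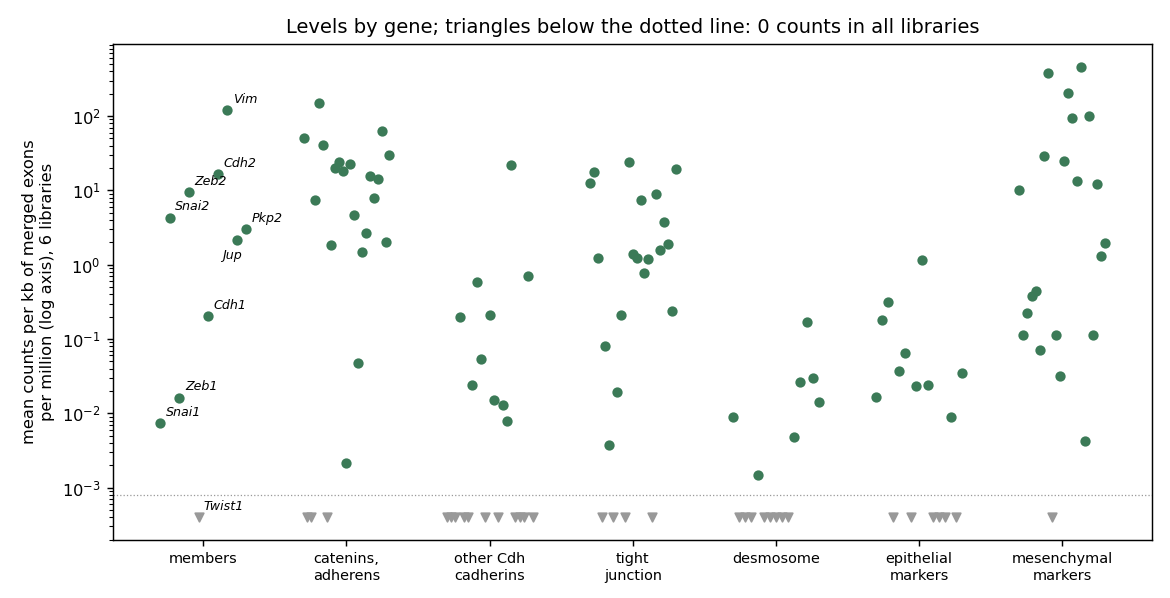
Mean level over the 6 libraries of each gene (CPM per kilobase of merged exons, log axis), with the 10 genes named on the left and other lists beside them. Triangles below the dotted line stand for genes with 0 counts in all libraries, which include 8 of 15 desmosome genes.

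Vim, the intermediate filament protein of mesenchymal cells, was the most abundant of the 10 genes and showed no change that passed the test. It was counted 8269, 7068 and 8113 times in control and 8379, 8309 and 7537 times with fenofibrate, with overlapping groups. The fitted change on the log2 scale was 0.06 ± 0.09 (SE; 95% interval -0.15 to 0.27; edgeR adjusted p = 0.651), so that a fall below 0.899 or a rise above 1.2 times the control level lies outside the interval. Its per-length level was 120.0 ± 12.3 in control and 120.1 ± 11.3 with fenofibrate (CPM per kilobase, mean ± SD, n = 3 each). Vim, ENSMUSG00000026728, lies on chromosome 2 from 13573927 to 13582826. In control the per-length order was Vim, Cdh2, Zeb2, Snai2, Jup, Pkp2 and Cdh1, with no overlap between neighbours over the 3 libraries, and Snai1 and Zeb1 lay below them and overlapped each other. With fenofibrate, Pkp2 (4.0 to 5.43 CPM per kilobase) moved past Jup and overlapped Snai2 (4.46 to 5.15).

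**Figure D4:**
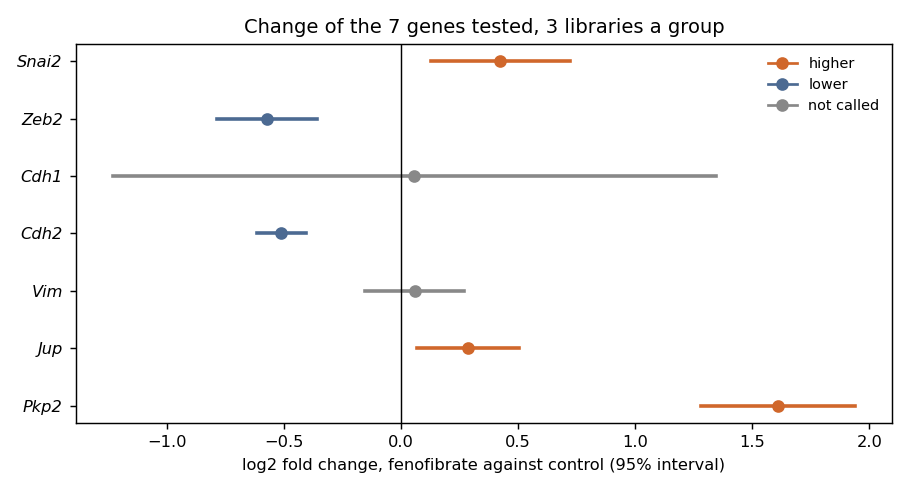
Log2 fold change between fenofibrate and control (horizontal axis) with 95% intervals for the 7 tested genes, coloured by call. Pkp2 lies farthest from 0, the interval of Cdh1 spans -1.23 to 1.35, and those of Snai2 and Jup lie close to 0.

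Partners of the adherens junction split between directions. Of 18 tested, 5 rose and 6 fell (61.1% called, where 39.1% of all tested genes were), with a median log2 fold change of -0.02. Vcl, encoding vinculin, which ties catenin to actin, rose 2.40-fold. Lima1, an actin-binding partner of α-catenin, rose 1.52-fold, and Ctnnbip1, an inhibitor of β-catenin binding, 1.55-fold. Nectin2, an adhesion receptor of the junction, fell 1.86-fold, Wtip, a LIM-domain protein of the Ajuba family, 1.77-fold, and Afdn, the nectin anchor afadin, 1.6-fold. Adjusted p values of these 6 genes in edgeR ran from 3e-05 to 0.00886. Ctnnb1, β-catenin itself, stood at 728 ± 46.1 and 809 ± 29.6 normalised CPM (mean ± SD, n = 3 each, edgeR adjusted p = 0.0510), and it passed without control replicate 1 (adjusted p = 0.0153) and with a block on replicate number. Vcl, Ctnnbip1, Nectin2, Afdn and Ctnnb1 share exon bases with a gene on the opposite strand, and their counts can hold its reads. The same holds for Sox4, Pcdh19, Fat1, Tjp3, Fn1, Sync, Adam15, Ncstn and Rab7, and Ctbp2, Celsr3, Plec, Ptprm and Rcor1 overlap a gene on their own strand.

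Among 15 tight junction genes tested, 0 rose and 4 fell (median -0.11), so that 26.7% were called, against 39.1% of all tested genes. At an unadjusted p under 0.05 1 rose, and 0 or 1 rose in the alternatives, DESeq2 and limma included. Tjp1, the scaffold ZO-1, fell 1.38-fold, its relative Tjp3 1.65-fold and the polarity gene Pard3 1.24-fold, a call that limma on FPKM without a filter did not make (adjusted p = 0.0537). The claudin gene Cldn1, the occludin gene Ocln, Cldn7 and Crb3 had 0 counts. The polarity kinase gene Prkci did not pass (log2 fold change -0.07 ± 0.05 SE, adjusted p = 0.320).

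Other EMT-linked regulators moved both ways, with 3 of 15 tested higher and 4 lower (median -0.07). The share called was 46.7%, where it was 39.1% of all tested genes, 19.5% higher and 19.5% lower. Tcf3, the E-box factor E2A, fell 1.63-fold, its relative Tcf12 1.56-fold and the ZEB corepressor gene Ctbp2 1.37-fold. Tcf12 lost its call without control replicate 1, 2 or 3 (adjusted p = 0.0906, 0.0912 and 0.0754). Klf4, a factor of epithelial differentiation, rose 2.88-fold (143 counts in control, 409 after fenofibrate), Foxc1 rose 1.67-fold and Sox4 1.23-fold. Ctbp1 (adjusted p = 0.0986) and Rcor1 (adjusted p = 0.197) were not called. Of 14 epithelial transcription and splicing factors, 4 were tested. Grhl1, a grainyhead factor, rose 4.97-fold, from 71 counts over the controls to 351, and Foxa1, a pioneer factor, fell 2.51-fold, from 221 to 87. Klf5 and Elf5 were tested and not called (adjusted p = 0.215 and 0.0877), and the splicing gene Esrp1 had 7 and 2 counts.

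Of 16 epithelial markers 1 was tested and 0 were called. At an unadjusted p under 0.05 this was also 0, and in DESeq2 and limma 0 rose. The tested gene was Spint1, a protease inhibitor gene, at a log2 change of -0.61 ± 0.29 (SE, edgeR adjusted p = 0.130), which was called lower without control replicate 2 (adjusted p = 0.0219). Epcam had 1 count in control and 2 after fenofibrate, and 6 markers had none. Mesenchymal markers were called higher more often than lower, 9 against 2 of 14 tested, with a median of 0.43. The share called was 78.6%, against 39.1% of all tested genes. The fibronectin gene Fn1 rose 2.25-fold and the gelatinase gene Mmp2 2.29-fold, the latter from 38 to 87 counts and not called by DESeq2 (adjusted p = 0.0710). Among these markers, Mmp2 passed the low-count filter through the fenofibrate libraries only (8, 13 and 17 counts in control, 27, 29 and 31 with fenofibrate). The filter thus bears on the count of markers called higher and on the median. The receptor gene Pdgfrb fell 1.80-fold and the membrane protease gene Mmp14 1.29-fold. Cd44 and Tpm1 were abundant and not called, but Cd44 was called higher without fenofibrate replicate 2 (adjusted p = 0.00117) and Tpm1 without control replicate 3 (0.0020).

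Of 12 tested intermediate filament and linker genes, 4 rose and 2 fell (median 0.19), so that 50.0% were called, against 39.1% of all tested genes. Sync, called higher, and Synm, not called (14 counts in control, 49 with fenofibrate), passed the low-count filter through the fenofibrate libraries only. The filter thus bears on the count of genes called higher and on the median. The lamin genes went apart, with Lmna up 1.74-fold and Lmnb1 and Lmnb2 down 1.26-fold and 1.36-fold. Plec, encoding plectin, which anchors vimentin, rose 1.24-fold, a call lost without control replicate 1 or 3 (adjusted p = 0.0542 and 0.0642) or fenofibrate replicate 1 or 2 (0.0520 and 0.0547). Sync rose 2.54-fold from 18 to 46 counts, a call lost without control replicate 1 or 2 (0.0705 and 0.0592) or fenofibrate replicate 1 or 3 (0.0599 and 0.0595). Nestin (Nes) and the cytoskeletal linker Macf1 were not called (adjusted p = 0.167 and 0.756), but Nes was called higher without fenofibrate replicate 3 (0.00726).

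Of 18 tested enzymes and trafficking genes that cut or turn over cadherins, 6 rose and 1 fell (median 0.13). The share called, 38.9%, was near the 39.1% of all tested genes. Ptprm, a cadherin-binding phosphatase, rose 1.43-fold, the protease gene Adam15 1.29-fold and the γ-secretase subunit gene Ncstn 1.3-fold, while the presenilin gene Psen2 fell 1.43-fold. Ncstn was not called by limma on FPKM without a filter (adjusted p = 0.0521). Rab7 and Csnk2a1 were not called (adjusted p = 0.477 and 0.0913), and without control replicate 3 Rab7, otherwise lower, was called higher (log2 fold change 0.23, adjusted p = 0.00789). In the melanocyte list Mitf rose 2.27-fold, Oca2 1.68-fold and Sox10 1.53-fold, Kit fell 3.12-fold, and Tyrp1 and Tyr were not called (adjusted p = 0.0663 and 0.684), but Tyrp1 was called higher without control replicate 1 (0.0367).

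**Figure D5:**
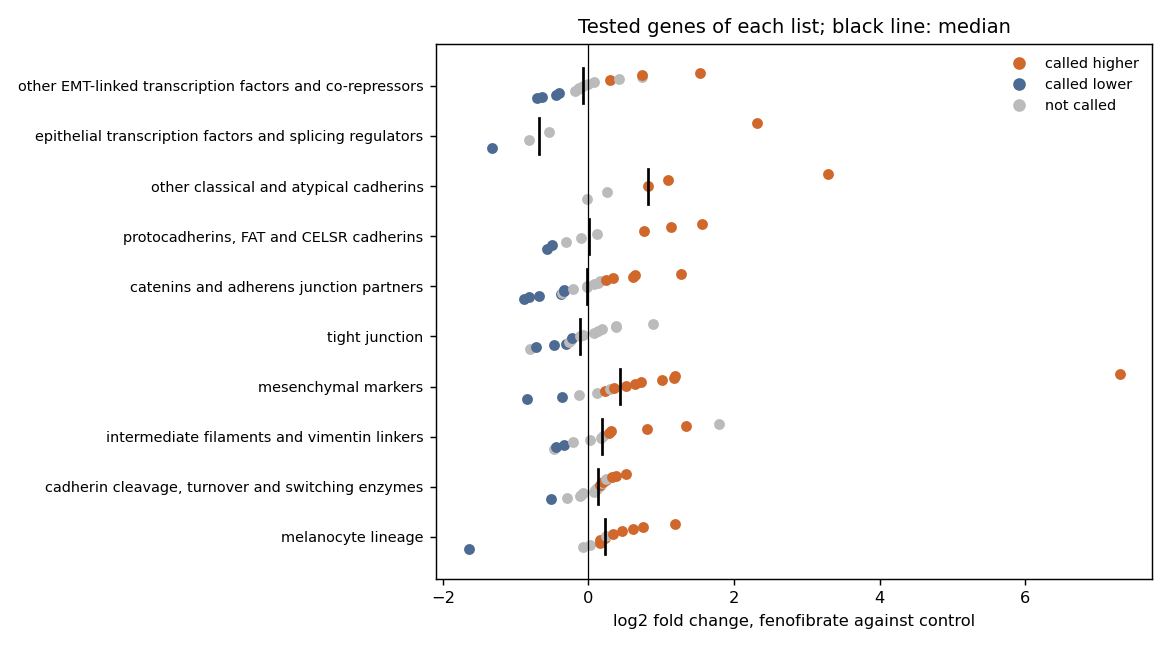
Log2 fold change between fenofibrate and control (horizontal axis) of each tested gene in 10 lists, coloured by call, with the median of each list as a black line. Called genes lie on both sides of 0 in most lists, and the other Cdh cadherins have called genes on the higher side only. Among these, Cdh6 passed the low-count filter through its fenofibrate libraries only.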

How the data were processed

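Libraries were made from total RNA enriched for mRNA. For each of 6 libraries the deposited table gives raw counts of every gene next to FPKM, both computed by the authors. HISAT2 2.0.4, StringTie 1.3.0 and GRCm39 are named, without roles, per the submitters' processing notes; counting tool, strand setting and filters are not given in the sources used here. Coordinates in the table equal those of GENCODE M21 (GRCm38) for all 10 genes, so GRCm38 is used.

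Counts were filtered with filterByExpr, scaled by TMM and tested with edgeR 4.0.16 (glmQLFit, glmQLFTest, no covariate; R 4.3.3) over all 13629 genes kept, with Benjamini-Hochberg adjustment. The SE is the log2 fold change divided by the root of F. Normalised CPM use TMM-scaled totals. Depth was 13540038 to 14710856 counts, and p-values measure the spread between these libraries. The test was also run on simulated data, which checks its code and not the calls made here.

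The 10 genes and 18 lists (249 further symbols, 248 matched by symbol, 1 by another name) were chosen with earlier results of these data known. From each of 12 pathway lists, up to 3 called genes each way and 2 abundant genes not called are named; others were chosen after their values were seen. Alternatives were DESeq2 1.42.0, other scaling, no filter, a block on replicate number, limma 3.58.1 on log2(FPKM + 0.5) or log2(FPKM + 0.1), and leaving out each library. Same-numbered libraries deviated together with correlations of 0.0287, 0.0118 and 0.0214, too low to pair them. Of the genes this rule names, 2 are not reported here.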

Additional observations from a re-analysis of the deposited data

How the results depend on the processing

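In all 14 alternatives 2 of the genes, Zeb2 and Cdh2, were called lower (log2 fold change -0.64 to -0.48 and -0.57 to -0.49), and Pkp2 was called higher (1.26 to 1.69). The number called higher was 3, and it was 1 with DESeq2, with library totals only, without a low-count filter and with limma on FPKM without a filter, and 1 to 2 when 1 library was left out. Snai2 and Jup, the genes lost, kept their direction. With the replicate block it was 2 and the log2 fold change of Jup 0.28 (adjusted p = 0.0903). The block is not taken as a pairing, although each library's deviations correlated best with its own number. Over all genes the block gave 4540 calls in place of 5326, and the other alternatives 4196 to 5460. The change in the log2 ratio of Cdh1 to Cdh2 ran from 0.18 to 1.17 when 1 library was left out. Rab7, not called, had log2 fold changes from -0.50 to 0.23 when 1 library was left out and rose without control replicate 3 (0.23, adjusted p = 0.00789); the cause was not tested. Of 43 other named genes that were called, 33 were called in every alternative with a value. List counts that moved by over 1.5 times were protocadherins lower (2; 1 to 3) and higher (3; 1 to 3), other cadherins higher (3; 1 to 3), intermediate filament genes higher (4; 2 to 4), cadherin turnover genes higher (6; 2 to 5), epithelial factors lower (1; 1 to 2), epithelial markers lower (0; 0 to 1), tight junction genes higher (0; 0 to 1) and melanocyte genes lower (1; 0 to 1). Depth limits Cdh1, Zeb1, Snai1, Twist1 and the desmosome genes, whose changes were not detectable or not tested.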
